A study of Mus musculus with 12 samples.

Results

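Gpr39, Pm20d1, Snrpe and Rnpep are 4 genes on mouse chromosome 1, the chromosome that carries Nr5a2, and all 4 differed between livers of LRH-1 K289R mice and livers of wild-type (WT) mice. They were picked from 19938 measured genes because they lie on that chromosome and differed between the genotypes, with an adjusted p under 0.05. They are 4 of the 9 genes there that did so, and the others are given below. Each was measured by 1 probe set among the 21789 rows, of 35556, that name 1 gene symbol. Rows with several symbols were not searched for them. Nr5a2 encodes LRH-1, a nuclear receptor that binds DNA as a monomer and that in liver controls genes of bile acids, cholesterol and glucose use. The K289R knock-in puts an arginine in place of a lysine to which the small protein SUMO can be attached. The tested mice were 6 LRH-1 K289R males and the others 6 WT males, all labelled C57BL/6J, with 1 liver array per mouse. The genotype entry of WT 4 has the same strain name run onto it, and its title says WT. Both groups were fasted for 24 h and then refed for 6 h, and the mice's age is not given in the sources used here. Levels are linear intensities of Affymetrix probe sets.

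The 4 genes have unrelated functions. Gpr39 is a zinc-activated G protein-coupled receptor of the ghrelin receptor family. Pm20d1 is a secreted enzyme that joins fatty acids to amino acids and also splits the products, the N-acyl amino acids, which uncouple mitochondrial respiration. Snrpe is one of the Sm proteins, which form a ring around the small nuclear RNAs of the spliceosome. Rnpep, or aminopeptidase B, removes arginine and lysine residues from the amino ends of peptides.

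Some arrays stood apart in transcripts of other tissues or of the acute phase. The 7 measured of 10 pancreatic acinar markers summed to 4764 on array K289R 1 and 7408 on K289R 3, against 146 to 188 on the other K289R arrays and 160 to 182 in WT. The 9 acute phase genes summed to 3733 to 4996 in K289R and to 3554 to 10085 in WT, with 9085 on WT 1, 5020 on WT 2 and 10085 on WT 3. The 6 skeletal muscle markers summed to 683 on K289R 3 and 164 to 249 on the other K289R arrays, against 1852 on WT 1 and 199 to 243 on the other WT arrays. The 6 Kupffer cell markers summed to 573 to 1170 in K289R, highest on K289R 4, and to 499 to 887 in WT. The 7 measured of 8 hepatocyte markers summed to 29859 to 31514 in K289R and 30971 to 31915 in WT. None of these markers was called, at an adjusted p under 0.05 (limma). Fewer cells of a type and less RNA per cell cannot be told apart in bulk liver.

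Gpr39, Pm20d1 and Snrpe were higher in K289R livers and Rnpep was lower. The groups did not overlap for any of the 4, as for 1.24% of all genes. An adjusted p under 0.05 was reached by 0.572% of all genes, made up of 0.481% that were higher and 0.0903% that were lower in K289R. The 4 genes were chosen by this same contrast, so their values are a description and carry no test.

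Gpr39, the zinc receptor, had a lowest, median and highest intensity of 65.4, 68.2 and 89.0 in K289R, against 44.3, 52.9 and 55.0 in WT (probe set 10349401). The mean was 71.7 ± 9.05 in K289R and 51.6 ± 3.80 in WT (SD, n = 6 each), a log2 difference of 0.47 (1.39-fold). One array in each group set the outer edge, K289R 5 at the top and WT 1, the array with the highest skeletal muscle sum, at the bottom; the part of those transcripts in the low value was not tested. Of the 4 genes this one had the largest adjusted p (0.0109, limma with Benjamini-Hochberg adjustment). It did not pass without WT 1 and 3 (log2 difference 0.43, adjusted p = 0.0554, limma), nor without K289R 1 and 3 and WT 1 and 3 together (0.45, adjusted p = 0.140), and it did without K289R 1 and 3 (0.49, adjusted p = 0.0467). These fits reuse arrays by which the gene was chosen, so they too are a description.

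Pm20d1, the N-acyl amino acid enzyme, had the widest difference of the 4. Its lowest, median and highest intensities were 746, 756 and 847 in K289R, against 360, 468 and 545 in WT (probe set 10349694). The mean was 779 ± 41.4 in K289R and 462 ± 80.9 in WT (SD, n = 6 each), a log2 difference of 0.77 (1.71-fold). The K289R arrays lay close together, with a coefficient of variation of 5.32%, against 17.5% in WT. The WT arrays fell into a lower set, with 409 on WT 1, 399 on WT 2 and 360 on WT 3, and a higher one of 528 to 545. The lower set holds the 3 WT arrays with the highest acute phase sums, 9085, 5020 and 10085. Within K289R the array with the highest such sum, K289R 4 at 4996, had the highest Pm20d1 intensity, 847. The part of acute phase transcripts in the WT level was not tested. Without WT 1 and 3 the log2 difference was 0.65.

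Snrpe, the Sm protein of the spliceosome, had 155, 187 and 210 as lowest, median and highest intensities in K289R, against 105, 119 and 141 in WT (probe set 10357808). Its mean was 185 ± 23.0 in K289R and 122 ± 13.5 in WT (SD, n = 6 each), a log2 difference of 0.60 (1.51-fold). The gap between the groups was narrow, from the lowest K289R array (K289R 3) to the highest WT array (WT 3), and both groups varied alike, with coefficients of variation of 12.5% in K289R and 11.1% in WT. RefSeq also lists Snrpert, a pseudogene on another chromosome with a name derived from Snrpe, and whether the probe set binds its transcript was not tested.

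Rnpep, the aminopeptidase, ran the other way. Its lowest, median and highest intensities were 142, 158 and 191 in K289R, against 212, 227 and 247 in WT (probe set 10358038). The mean was 164 ± 18.0 in K289R and 226 ± 13.5 in WT (SD, n = 6 each), a log2 difference of -0.47. The highest K289R array, K289R 5, was also the highest for Gpr39.

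**Figure D1:**
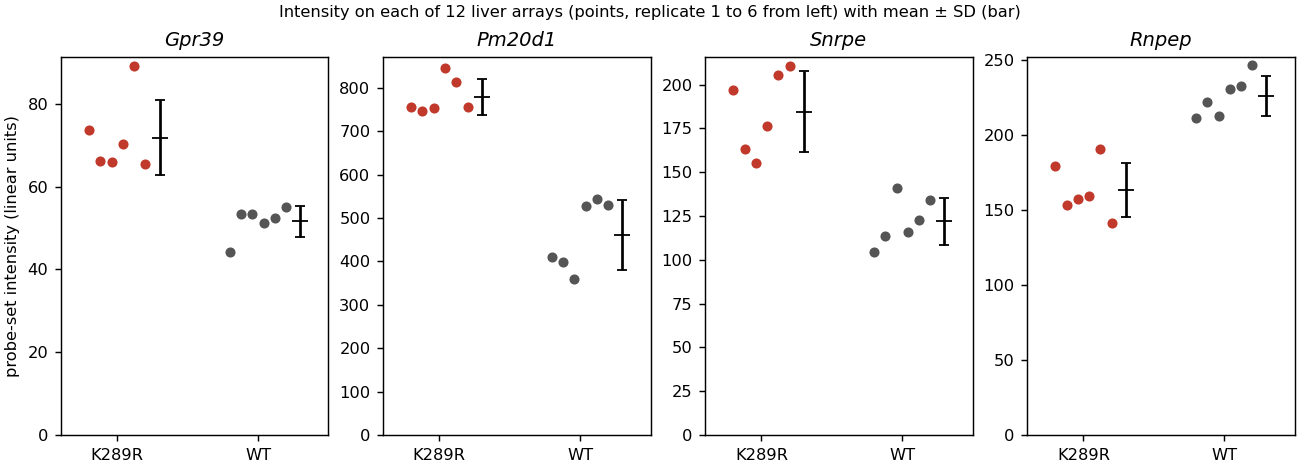
Probe-set intensity in linear units (y axis, from 0) of Gpr39, Pm20d1, Snrpe and Rnpep on 6 K289R and 6 WT liver arrays, with the mean and SD as a bar beside each group. K289R points lie above all WT points for Gpr39, Pm20d1 and Snrpe and below them for Rnpep; the Pm20d1 points of WT form a lower and a higher set.

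Arrays K289R 1 and 3, with the acinar transcripts, were not extreme in these genes, apart from the low Snrpe value of K289R 3. Without them the log2 differences were 0.79 for Pm20d1, 0.63 for Snrpe and -0.49 for Rnpep, as large as with all arrays. Without all 4 arrays that stood apart they were 0.67, 0.63 and -0.54. The plot of log2 differences by setting shows that none of the 4 genes changed direction under the 23 settings tried.

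**Figure D2:**
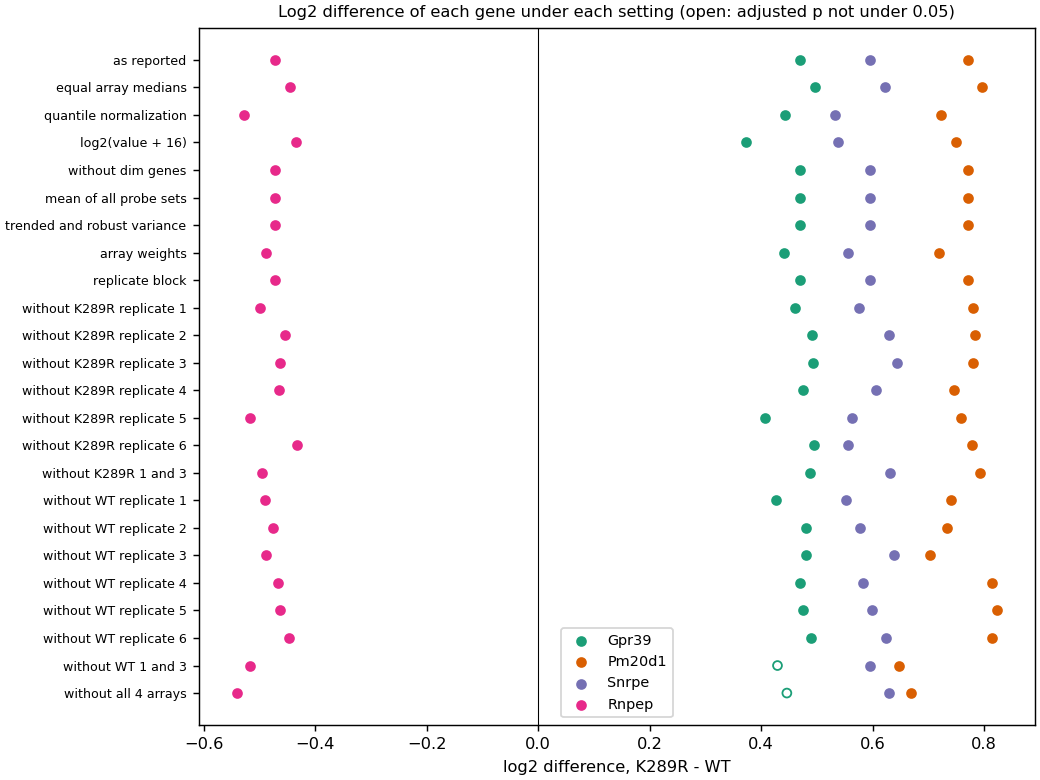
Log2 difference, K289R minus WT, of Gpr39, Pm20d1, Snrpe and Rnpep (x axis) with all arrays and under 23 other settings (y axis); open points have an adjusted p that is not under 0.05. Rnpep stays between -0.54 and -0.43, the others stay above 0, and the 2 open points are Gpr39 without WT 1 and 3 and without all 4 arrays that stood apart.

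The start regions of these genes are shown because LRH-1, the mutated receptor, binds DNA near the genes it regulates. Effects of the receptor and of other chromosome 1 DNA inherited with the altered allele cannot be told apart in this design. RefSeq promoter windows (GRCm38.p6, 250 bases before to 50 after a transcript start, written along the gene's strand) were on hand for 3 of the 4, Gpr39 on the plus strand at chr1:125676746-125677045, Snrpe on the minus strand at chr1:133610231-133610530 and Rnpep on the minus strand at chr1:135284035-135284334. Capitals mark the matches to CANGTG, a pattern that includes the E-box CACGTG.
Gpr39: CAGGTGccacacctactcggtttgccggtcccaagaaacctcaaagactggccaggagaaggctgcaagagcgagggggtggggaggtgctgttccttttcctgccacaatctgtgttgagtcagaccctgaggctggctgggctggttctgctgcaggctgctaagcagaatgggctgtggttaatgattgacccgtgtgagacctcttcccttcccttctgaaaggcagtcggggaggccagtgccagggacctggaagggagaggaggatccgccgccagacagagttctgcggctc
Snrpe: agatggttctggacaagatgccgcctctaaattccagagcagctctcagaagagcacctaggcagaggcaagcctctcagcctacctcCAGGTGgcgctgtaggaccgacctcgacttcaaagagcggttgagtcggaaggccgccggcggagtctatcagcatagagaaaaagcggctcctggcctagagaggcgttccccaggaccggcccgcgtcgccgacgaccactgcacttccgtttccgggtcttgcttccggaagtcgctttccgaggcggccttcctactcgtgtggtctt
Rnpep: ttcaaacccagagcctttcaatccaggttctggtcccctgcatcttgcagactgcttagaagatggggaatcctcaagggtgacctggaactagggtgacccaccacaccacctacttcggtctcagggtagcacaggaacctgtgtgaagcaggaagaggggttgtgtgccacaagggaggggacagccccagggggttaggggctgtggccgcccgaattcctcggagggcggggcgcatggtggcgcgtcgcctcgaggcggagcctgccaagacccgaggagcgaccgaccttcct
The NR5A site written as CAAGGNCA was looked for on both strands and found in none of the 3 windows, and in 6.71% of the 32851 windows of the table. Its core, AAGGNCA, which lies within it, was also in none of the 3 and in 20.3% of all windows. The pattern CANGTG was in Gpr39 and Snrpe, as CAGGTG in both, and in 44.9% of all windows. These matches are a description of letters in 1 window per gene and say nothing of binding.

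The chromosome of Nr5a2 held 1122 measured genes, of which 9 were called (0.802%), against 105 of 18734 genes on the other chromosomes (0.56%). The 4 genes were chosen for being called there, and without them it was 5 of 1118 (0.447%), below the share of the other chromosomes, so nothing is read from these counts. All 4 genes lie on the same side of Nr5a2, at lower coordinates. Counted in measured genes in RefSeq order, Rnpep is 25 genes from Nr5a2, Snrpe 52, Pm20d1 79 and Gpr39 122. The stretch from Gpr39 to the gene before Nr5a2 holds 122 measured genes, and 5 of them were called, the 4 genes here and Ctse. The stretch is bounded by a chosen gene, and without the 4 genes 1 of 118 was called (0.847%, against 0.572% of all genes). Ctse, the protease cathepsin E, lies 3 measured genes from Pm20d1 and had 447 ± 92.7 in K289R against 18.8 ± 3.99 in WT (SD, n = 6 each), higher in K289R (adjusted p = 1.49e-11, limma). No fold is given, because the WT mean lies below the median intensity of every array (26.8 to 29.2), where signal is not told from background here.

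The other 4 called genes on the chromosome lie outside the stretch from Gpr39 to Nr5a2. One of them, Rgs16, is as near to Nr5a2 as Snrpe is, on the other side. Serpinb12, an intracellular serine protease inhibitor, is 164 genes away on the same side, at intensities of 4.15 to 4.80 in K289R and 3.56 to 3.87 in WT, far below those array medians. Its log2 difference was 0.28, and its adjusted p of 0.0422 was the one just inside the threshold on this chromosome, whereas Gas5, a host gene of small nucleolar RNAs, lay just outside (log2 difference -0.45, adjusted p = 0.0522, limma). On the far side of Nr5a2 lie Rgs16, a regulator of G protein signalling (52 genes away, log2 difference 2.24), Pcp4l1, a relative of the calmodulin regulator Pcp4 (185 genes, 0.74), and the complement regulator Susd4 (330 genes, -0.61). Rgs16 varied widely, with 463 ± 290 in K289R and 87.5 ± 41.0 in WT (SD, n = 6 each). It was not called with a trended and robust variance, without WT 1 and 3, or without K289R 1 and 3 and WT 1 and 3 together. Nr5a2 itself averaged 324 ± 18.4 in K289R and 303 ± 27.1 in WT (SD, n = 6 each) and did not pass (log2 difference 0.10, adjusted p = 0.582, limma).

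**Figure D3:**
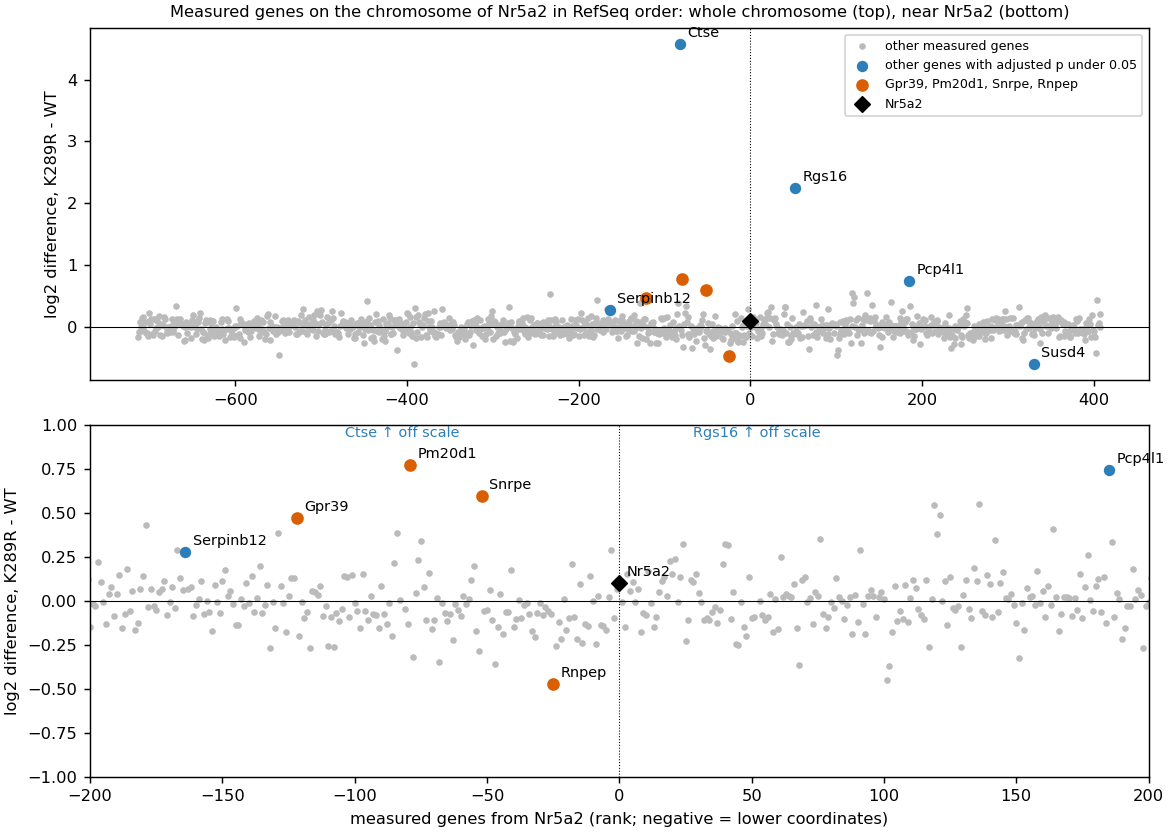
Log2 difference, K289R minus WT (y axis), of the 1122 measured genes on the chromosome of Nr5a2, by their rank from Nr5a2 (x axis), for the whole chromosome (top) and near Nr5a2 (bottom, where Ctse and Rgs16 are off scale). Gpr39, Pm20d1 and Snrpe (orange) lie above 0 and Rnpep below 0, all left of Nr5a2. Elsewhere on the chromosome Pcp4l1 at 0.74 and Susd4 at -0.61 lie as far out.

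Smaller differences, short of a call, were counted as well. Of the 200 measured genes within 100 of Nr5a2 on either side, 43 had an unadjusted p under 0.05 (21.5%), and 40 of 197 (20.3%) without Pm20d1, Snrpe and Rnpep, against 12% of all genes and 12.2% of the chromosome. The share was 24.0% in the 100 genes before Nr5a2, on the side of the 4 genes, and 21.6% there without Pm20d1, Snrpe and Rnpep, against 19.0% in the 100 after it. Among full bins of 50 genes it was highest in the 3 bins from 100 genes before to 50 genes after Nr5a2. These held 12, 12 and 11 such genes, or 10 of 48, 11 of 49 and 11 of 50 without the 4 genes. They were singled out after the values of the bins were seen. The other 19 full bins held 2 to 8 such genes, and the shorter end bins 3 of 13 and 2 of 8. Neighbouring genes share arrays and mice and are not independent, so these shares carry no test.

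**Figure D4:**
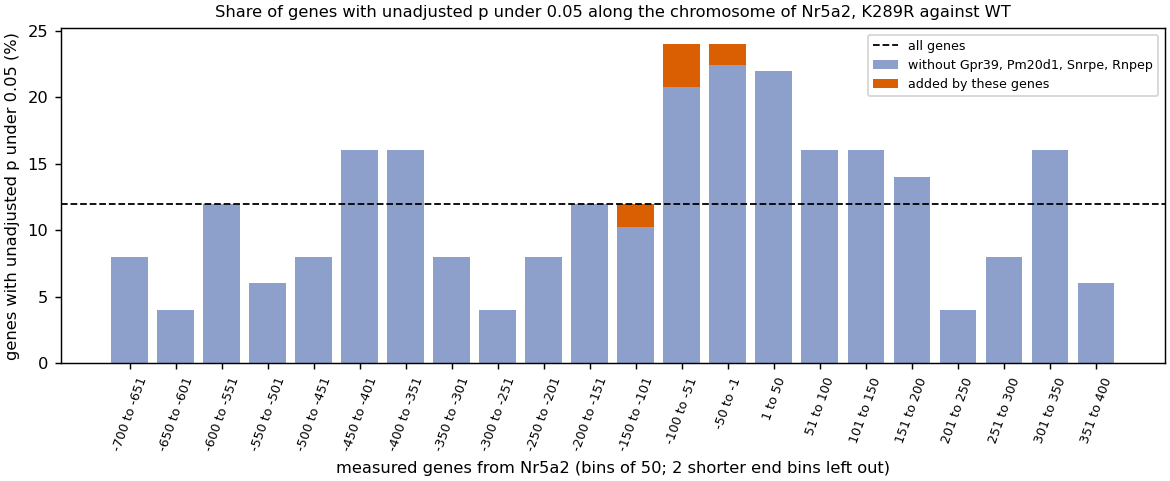
Percent of genes with an unadjusted p under 0.05 for K289R against WT (y axis) in bins of 50 measured genes along the chromosome of Nr5a2 (x axis), with the part added by Gpr39, Pm20d1, Snrpe and Rnpep in orange and the share over all genes (12%) as a dashed line. The 2 bins just left of Nr5a2 and the 1 just right of it stand at 22 to 24.0%.

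The genes next to the 4 did not pass. Of the 24 measured genes within 3 places of them, Ctse was the one called, and the others had log2 differences of -0.32 to 0.23 with adjusted p of at least 0.174 (limma). At an unadjusted p under 0.05 there were 6 of the 24, or 5 of 23 without Ctse, against 12% of all genes. Lypd1, which encodes a membrane-anchored Ly6 protein, overlaps the far end of Gpr39 on the opposite strand in RefSeq. It had 31.5 ± 3.26 in K289R and 36.4 ± 5.11 in WT (SD, n = 6 each, log2 difference -0.20, adjusted p = 0.417, limma), opposite in sign to Gpr39. Slc35f5, a solute carrier on the other side of Gpr39, had a log2 difference of 0.13 (adjusted p = 0.506).

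Pm20d1 lies between 2 ion transporter genes, Slc26a9 for anions (log2 difference -0.14, adjusted p = 0.416, limma) and Slc41a1 for magnesium (-0.32, adjusted p = 0.218). Snrpe lies between the transcription factor gene Sox13 (-0.29, adjusted p = 0.174) and the lymphocyte adaptor gene Lax1. No value is given for Lax1, which stays in the counts, because the ID of the probe set annotated to it lies among those of genes on other chromosomes. Rnpep lies between the transcription factor gene Elf3 (-0.07, adjusted p = 0.814) and Timm17a, a subunit of the mitochondrial import channel (-0.26, adjusted p = 0.183). The means of Slc26a9 and Elf3 lay below the array medians in both genotypes, where signal is not told from background here. Among the 6 measured genes within 3 places of Nr5a2 none was called and 1 had an unadjusted p under 0.05. That gene, the helicase Ddx59, was 56.1 ± 3.97 in K289R and 46.0 ± 4.15 in WT (SD, n = 6 each) with a log2 difference of 0.29 (adjusted p = 0.108, limma); it was singled out after its values were seen.

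None of the other measured relatives of the 4 genes was called, where 0.572% of all genes were and 12% had an unadjusted p under 0.05, so lists of this size would hold few or no calls at that share. Over all genes the median log2 difference was -0.01. The 7 other receptors of the ghrelin, neurotensin, neuromedin and thyrotropin-releasing hormone group had a median of -0.02, with none under an unadjusted p of 0.05. The ghrelin receptor gene Ghsr had -0.12 (adjusted p = 0.608, limma) and the neurotensin receptor gene Ntsr1 -0.07 (adjusted p = 0.843). Ntsr1 and 2 further receptor genes of the list, Nmur2 and Trhr, lay below the median intensity of every array. There signal is not told from background here, so their small differences say little.

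Among 12 other M20 peptidases and enzymes of N-acyl amino acids and amides the median was 0.04, and 2 had an unadjusted p under 0.05, both higher in K289R. These were Baat, which conjugates bile acids with taurine and glycine (log2 difference 0.22, adjusted p = 0.158, limma), and Aspa, which splits N-acetylaspartate (0.27, adjusted p = 0.367). Faah, which hydrolyses fatty acid amides and N-acyl amino acids, had 318 ± 25.7 in K289R and 301 ± 39.5 in WT (SD, n = 6 each, log2 difference 0.09, adjusted p = 0.718, limma). Pm20d2, the closest relative of Pm20d1 by name, had -0.05 (adjusted p = 0.868). Its means, 28.1 in K289R and 29.4 in WT, lay close to the array medians (26.8 to 29.2). Those of Napepld and Cndp1 lay below these medians in both genotypes, where signal is not told from background here.

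Of 31 other genes of Sm and LSm proteins, snRNP proteins and their assembly factors none was called, and the median was 0.03. At an unadjusted p under 0.05, 3 were higher and 2 lower. The snRNP protein genes Snrpb2 and Snrpa1 had log2 differences of 0.21 (adjusted p = 0.273, limma) and 0.25 (adjusted p = 0.316), the assembly chaperone gene Clns1a 0.20 (adjusted p = 0.315) and the snRNP protein gene Snrpa -0.24 (adjusted p = 0.300). The measured partners of Snrpe in the Sm ring, named here for that place after their values were seen, had log2 differences of 0.02 for Snrpb, -0.12 for Snrpd1, 0.14 for Snrpd2, 0.10 for Snrpd3 and 0.03 for Snrpg, with adjusted p of 0.475 to 0.912 (limma). Snrpf and Snrpn were not analysed here. The means of Lsm5 and Lsm11, which are in the list, lay below the array medians in both genotypes, where signal is not told from background here.

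The 9 other M1 aminopeptidases had a median of 0.02, with none called and 2 at an unadjusted p under 0.05, both higher in K289R. Enpep, which cleaves angiotensin, averaged 403 ± 51.9 in K289R and 324 ± 51.6 in WT (SD, n = 6 each, log2 difference 0.32, adjusted p = 0.252, limma), and Erap1, which trims peptides for antigen presentation, had 0.23 (adjusted p = 0.346). Rnpepl1, the relative closest to Rnpep by name, also lies on chromosome 1 and had -0.07 (adjusted p = 0.718). Lnpep was not analysed here. The means of Trhde and Lvrn, which are in the list, lay below the array medians in both genotypes, where signal is not told from background here.

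**Figure D5:**
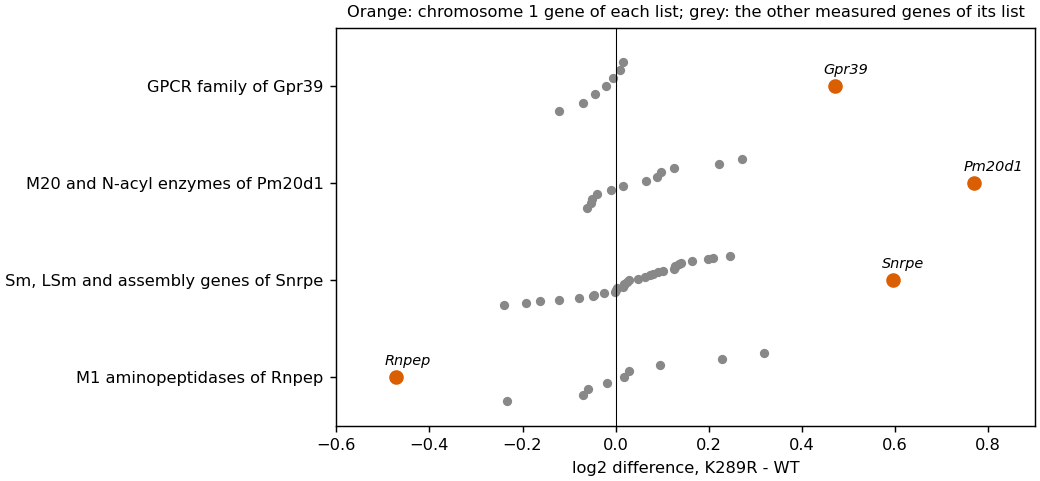
Log2 difference, K289R minus WT (x axis), of Gpr39, Pm20d1, Snrpe and Rnpep (orange) and of the other measured genes of their families (grey), 1 list per row. Each orange point lies outside the range of the grey points, which runs from -0.24 to 0.32 over all 4 lists. The orange genes were chosen for passing in this contrast, so their place is a description.

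How the 4 genes and Nr5a2 varied together among mice of 1 genotype was not used to choose them. Over the 10 pairs of these genes in each genotype, 20 relations, no Pearson correlation passed after Benjamini-Hochberg adjustment, and 3 had an unadjusted exact p under 0.05. The sign of r was the same in both genotypes for all 10 pairs, but without the 2 arrays farthest from the median of the first gene it turned in 8 of the 20 relations, so the shared signs rest on few arrays. The strongest was between Gpr39 and Rnpep in K289R, with r = 0.90 over 6 arrays (exact two-sided permutation p = 0.00278, adjusted p = 0.0556) and rho = 0.94 (exact permutation p = 0.0167, adjusted p = 0.278). The smallest p that 6 arrays allow is 0.00139. Without the 2 arrays farthest from the Gpr39 median r was 0.62. In WT the same pair had r = 0.59 (exact permutation p = 0.239, adjusted p = 0.713) and rho = 0.52 (exact permutation p = 0.300, adjusted p = 0.765), and r was -0.75 without the 2 farthest arrays, so its sign there rests on them.

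Gpr39 and Nr5a2 ran in opposite directions in WT, with r = -0.74 (exact permutation p = 0.0389, adjusted p = 0.250) and rho = -0.90 (exact permutation p = 0.0278, adjusted p = 0.278), and r = -0.89 without the 2 farthest arrays. In K289R this pair had r = -0.31 (exact permutation p = 0.461, adjusted p = 0.750) and rho = -0.43 (exact permutation p = 0.419, adjusted p = 0.765), and r was 0.94 without the 2 farthest arrays, so its sign there rests on those arrays. Pm20d1 and Rnpep had r = 0.85 in WT (exact permutation p = 0.0458, adjusted p = 0.250), with rho = 0.77 (exact permutation p = 0.103, adjusted p = 0.685) and r = 0.83 without the 2 farthest arrays. In K289R they had r = 0.35 (exact permutation p = 0.454, adjusted p = 0.750), and r = 0.11 without the 2 farthest arrays. Both genes were lowest in WT on WT 1, WT 2 and WT 3, the WT arrays with the highest acute phase sums. The acute phase sum on WT 2, 5020, was close to that on K289R 4, 4996, where Pm20d1 was not low. The part of acute phase transcripts in this relation was not tested.

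The genes most like each of the 4 from mouse to mouse were looked up over the whole table. Likeness was Pearson's r of the deviations from the genotype means over the 12 arrays, against 9543 genes, and since these are the highest of so many they carry no p. Gpr39 was most like the transporter gene Slc22a15 (r = 0.91, rho = 0.77), the lysosome-related organelle gene Hps3 (r = 0.91, rho = 0.75) and albumin, Alb (r = 0.91, rho = 0.94). Pm20d1 was most like the quinone reductase gene Nqo2 (r = 0.96, rho = 0.90), the hydrolase gene Abhd14b (r = 0.96, rho = 0.92) and the retinal reductase gene Dhrs3 (r = 0.94, rho = 0.86).

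Snrpe was most like the apolipoprotein gene Apoa1 (r = 0.91, rho = 0.80), the methyltransferase partner Trmt112 (r = 0.90, rho = 0.88) and Krtcap2 (r = 0.89, rho = 0.90), a subunit of the oligosaccharyltransferase. Among the genes most like Rnpep were Tex261 (r = 0.95, rho = 0.90) and Cibar1 (r = 0.93, rho = 0.92). None of the genes named here for their likeness lies on chromosome 1, and none was called between the genotypes (adjusted p of at least 0.358, limma).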

How the data were processed

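Liver RNA of 12 male mice was hybridised to Affymetrix gene arrays, 1 array per mouse, as the labels describe. The authors deposited linear probe-set intensities and the submitters' processing notes name Affymetrix Expression Console. No source used here gives its version, or how values were summarized and normalized. Array medians of 26.8 to 29.2 show a common scale. The number of arrays limits the precision.

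Of 35556 rows, 21789 had 1 gene symbol in the platform annotation and were used. Rows with several symbols (1621) or none listed (12146) were left out. Symbols of 21698 rows were matched by gene ID to RefSeq (GRCm38.p6), which served for names and gene order, since the files name no build. A gene with over 1 row was represented by the brightest.

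K289R was compared with WT by limma 3.58.1 in R 4.3.3 (lmFit, eBayes) on log2 values over 19938 genes without covariates, with Benjamini-Hochberg adjustment and a threshold of 0.05. The procedure was tested on simulated data. Means ± SD are linear, and log2 differences come from means of log2 values. The 4 genes and all lists were chosen with earlier results of these data known. Genes were named by a rule: the 4 genes, called genes on their chromosome, nearest neighbours, relatives with the smallest p and the most similar genes, of which 1 is not reported here. Alternatives were scaling, pseudocount, filter, probe-set averaging, variance model, weights, replicate block and arrays left out. Markers of cholangiocytes, Kupffer, endothelial and stellate cells, adipocytes and skeletal muscle were also summed, and no single marker was called (limma, adjusted p), although muscle sums were high on WT 1 and K289R 3. The replicate numbers name different mice and did not pair the arrays, so no block was used. Figures were drawn with matplotlib 3.10.9.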

Additional observations from a re-analysis of the deposited data

Results flagged for a closer look

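Gpr39 had 1 array far from the others in each genotype. K289R 5 had an intensity of 89.0, where the next K289R array had 73.7 and the lowest 65.4. WT 1 had 44.3, where the next WT array had 51.2 and the highest 55.0. The gap divided by the range of the group was 0.650 for K289R 5 and 0.648 for WT 1, above Dixon's 95% critical value for 6 samples. Chance flags about 1 in 20 groups, and 22 groups of 6 arrays were examined, of which 2 were flagged. Both arrays move the Gpr39 difference the same way. Its log2 difference was 0.41 without K289R 5 and 0.43 without WT 1, against 0.47 with all arrays, and both fits passed (adjusted p = 0.0156 and adjusted p = 0.0223, limma). Both fits reuse arrays by which Gpr39 was chosen, so passing is no support.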

How the results depend on the processing

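Gpr39, Pm20d1, Snrpe and Rnpep kept their direction under the 23 settings tried. The log2 differences ran from 0.37 to 0.50 for Gpr39, 0.65 to 0.82 for Pm20d1, 0.53 to 0.64 for Snrpe and -0.54 to -0.43 for Rnpep. Pm20d1, Snrpe and Rnpep passed in all of them, and Gpr39 in all but 2, without WT 1 and 3 and without all 4 arrays that stood apart. The 4 genes were chosen for passing on these same arrays, so passing again is a description and no support. The count of called genes was 114, and 65 to 164 under all settings. It was 75 without K289R 1 and 3 and 65 without all 4 arrays, fits with fewer samples. Without K289R 6, also a fit with fewer samples, it was 159. Of the 114, 96 were higher in K289R, against 94 of 127 after quantile normalization. Called genes on the chromosome of Nr5a2 numbered 9, 15 without dim genes, when fewer genes were tested, and 14 with a trended and robust variance, for which the cause was not tested. Leaving out 1 array gave 8 to 16 of them, the 16 without K289R 6. Within 100 genes of Nr5a2 there were 5, and 4 to 6 under all settings. With the replicate number as a block, 111 genes were called, 8 of them on the chromosome and all 4 genes among them. Same-numbered arrays of the 2 genotypes had correlations of -0.23 to 0.23 in their deviations from the genotype means, and 1 of 6 K289R arrays correlated best with its own number. Serpinb12 lay far below the array medians, where signal is not told from background here.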
